A study of Solanum lycopersicum with 24 samples.

Results

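LANCEOLATE (Solyc07g062680), BRC1a (Solyc03g119770), BRC1b (Solyc06g069240) and TCP7 (Solyc02g089830) are 4 tomato genes of the TCP family of transcription factors, chosen by locus ID from the 34075 genes of the deposited expression table. LANCEOLATE is known for leaf form, the BRC1 pair for the arrest of side buds. TCP7 carries the deposited description "TCP transcription factor 7", whereas the symbols of the other 3 loci came with the choice of genes and are not paired with these IDs in the deposited files. Expression was measured by RNA sequencing of shoot meristems from tomato (Solanum lycopersicum) grown in a greenhouse. Wild-type plants (WT) were compared with plants called slful, whose genotype stands in the deposited legend as ful1/ful2/mbp10/mbp20; these 4 are MADS-box genes of the FRUITFULL group. What was mutated in each, the cultivar, the plant age and the number of lines were not given there or in the labels. Each genotype was sampled as vegetative meristem (VM), as meristem in transition (TM), as floral meristem together with its flanking inflorescence meristem (FIM), and that same structure on the first sympodial shoot (SFIM). This makes 8 groups of 3 biological replicates, 24 libraries in all, each from a pool of 30 to 60 meristems.

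TCP proteins bind DNA through a basic helix-loop-helix-like domain and act mostly on the balance between cell division and cell expansion. LANCEOLATE belongs to the CIN branch, whose members push leaf cells toward maturity and are held back by a microRNA; in tomato, when this hold is lost, the compound leaf becomes simple. The BRC1 genes belong to the TB1/CYC branch and keep axillary buds from growing out, downstream of strigolactone and of other signals; in tomato BRC1b is the better known bud repressor of the pair. TCP7 is less described, and the RefSeq gene table used here (SLM_r2.1) gives TCP7 as a synonym of CYC1, without pairing either name with this locus ID.

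The libraries implied totals of 12.93 to 90.37 M reads, with the lowest in slful TM replicate 1. Between replicates the SD of log2 values had a median that ran from 0.08 in slful VM to 0.233 in slful FIM, where replicate 1 had a median shift of -0.22 on the log2 scale. Values of the VM and SFIM libraries were deposited with up to 10 decimals, apart from at most 0.0378% of those above 0, and those of the TM and FIM libraries with more, so the table joins 2 export formats. Stage differences that cross the formats (TM versus VM, SFIM versus FIM) cannot be told apart from a batch of that kind, whereas SFIM versus VM, FIM versus TM and every comparison of genotypes stay within one format. Of the genes named in the slful genotype, FUL1 (Solyc06g069430, described as FRUITFULL-like MADS-box 1) lay between 8.55 and 9.38 RPKM in slful SFIM and between 19.7 and 23.1 RPKM in WT SFIM, so its transcript was reduced and not lost. The other genes named in the genotype did not all follow: MBP20 was higher in slful at VM (14.1 ± 0.267 against 5.41 ± 0.14 RPKM), and the locus listed as MBP10 (Solyc02g065730) was at 2.12 ± 0.389 RPKM in slful TM and 1.93 ± 0.102 RPKM in WT TM and passed at no stage. All 3 shoot meristem markers were above 0 in every library, with the locus listed as WUS (Solyc02g083950) at 5.2 RPKM or more and that listed as CLV3 (Solyc11g071380) at 2.15 RPKM or more, but from VM to SFIM WUS rose (log2 fold change 2.28 in WT, adjusted p = 7.49e-11) and CLV3 fell (-1.09 in WT, adjusted p = 0.00294). The floral marker listed as AN (Solyc02g081670) was at 0 in all WT VM libraries and at most 0.0481 RPKM in slful VM, and the locus listed as the inflorescence gene S (Solyc02g077390) rose from at most 0.811 RPKM in VM libraries to at least 24.3 RPKM in all others.

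The 4 genes lay on different levels. Levels are in RPKM, which divides the reads of a gene by its length and by the mapped reads of the library, so genes can be compared on it. LANCEOLATE was a gene of middle rank, between the 41.2 and 55.4 percentile of the 18786 genes tested in every group. BRC1a and BRC1b stayed at or below the 9.85 percentile in every group. TCP7 was at most at the 13.7 percentile at VM, TM and FIM, and stood at the 39.3 percentile in WT SFIM and the 37.1 percentile in slful SFIM. The reads behind these levels, recovered from the deposited values, numbered 9818 for LANCEOLATE over the 24 libraries, 1068 for TCP7, 324 for BRC1b and 156 for BRC1a. Because whole pools of meristems were sequenced, fewer cells with a transcript and less transcript per cell cannot be told apart for any of these genes.

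**Figure D1:**
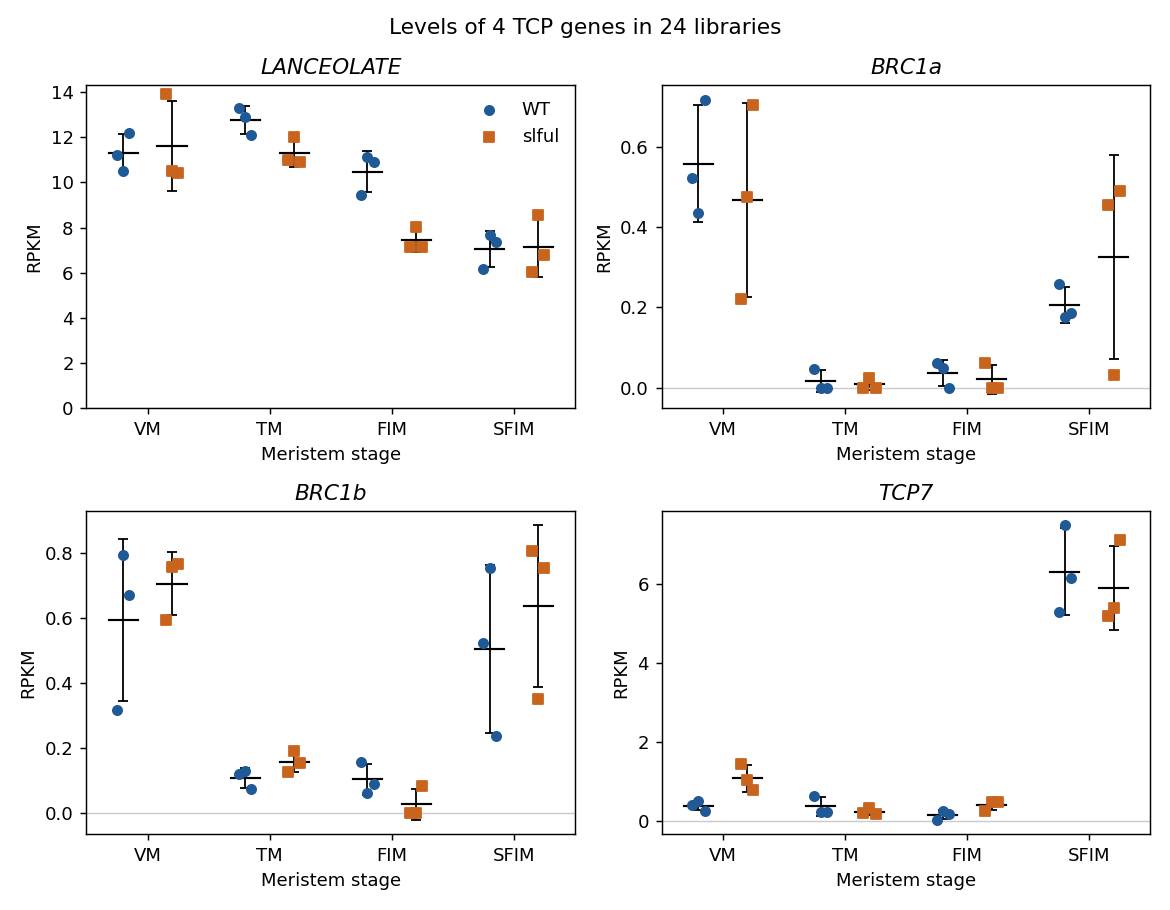
Levels of the 4 TCP genes in RPKM (vertical axes, one panel per gene, each with its own scale) at the 4 stages, with a point per library (WT circles, slful squares), the group mean as a bar and 1 SD (n = 3). LANCEOLATE falls from 11.3 RPKM in WT VM to 7.05 RPKM in WT SFIM, both BRC1 genes are low at TM and FIM, and TCP7 is high at SFIM in both genotypes.

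LANCEOLATE had the smallest span of group means of the 4 genes, on RPKM and on log2(RPKM + 0.5), and it declined toward the sympodial stage. The WT VM libraries held 11.2, 10.5 and 12.2 RPKM (replicates 1 to 3), the WT TM libraries 13.3, 12.9 and 12.1 RPKM, the WT FIM libraries 9.42, 11.1 and 10.9 RPKM, and the WT SFIM libraries 6.16, 7.66 and 7.34 RPKM. All 3 WT SFIM libraries were below every other WT library, so WT SFIM overlapped with no earlier WT stage. How many of all genes show such a gap between stages was not computed. In slful the libraries held 13.9, 10.5 and 10.4 RPKM at VM, 11.0, 12.0 and 10.9 RPKM at TM, 7.15, 8.04 and 7.13 RPKM at FIM, and 6.03, 8.56 and 6.79 RPKM at SFIM. Here the FIM libraries were already as low as the SFIM libraries, whose range included theirs, and both were below all VM and TM libraries of slful.

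From VM to SFIM, LANCEOLATE fell in both genotypes. The log2 fold change, taken on log2(RPKM + 0.5) as all log2 fold changes here, was -0.65 (SE 0.12) in WT, with a Benjamini-Hochberg adjusted p = 0.00015 in limma, and -0.66 (SE 0.11, adjusted p = 3.36e-05) in slful. In reads this was 795 against 1244 in WT, a ratio of 0.626 per unit of depth (95% counting interval 0.572 to 0.684). The 2 genotypes did not part in this step, with a slful minus WT difference of -0.01 (95% interval -0.35 to 0.32, adjusted p = 1.0). Of the 18786 genes tested, 44.4% passed in WT SFIM versus VM and 47.8% in slful SFIM versus VM. A fall at least as far as that of LANCEOLATE was shared by 9.27% of all genes tested in WT and 7.33% in slful. The step from WT FIM to WT SFIM, which crosses the export formats, gave -0.54 (SE 0.12, adjusted p = 0.00162), where 31.7% of genes passed. All 3 of these calls held under every alternative setting and with any 1 library left out.

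Summed markers of expanded leaf were also lower at SFIM than at VM, but did not follow LANCEOLATE through every stage. The summed level of the 3 loci listed as RBCS genes, small subunits of the carbon-fixing enzyme, ran from 257 to 323 RPKM in WT VM and from 154 to 217 RPKM in WT SFIM. In slful the sum ran from 260 to 353 RPKM at VM and from 202 to 223 RPKM at SFIM. Most of this sum is the locus listed as RBCS2, with a mean of 264 RPKM in WT VM and 159 RPKM in WT SFIM. The listed RBCS1 had means of 17.3 and 16.1 RPKM in these groups, and the listed RBCS3 means of 13.5 and 5.14 RPKM. The 3 genes described as chlorophyll a-b binding proteins summed to between 12.6 and 21.2 RPKM in WT VM and between 2.19 and 3.31 RPKM in WT SFIM, and to between 17.7 and 31.5 RPKM in slful VM and between 7.81 and 15.5 RPKM in slful SFIM. These 3 were found through descriptions read only from the authors' sheets of slful against WT. Each was thus listed as changed between genotypes at some stage, and they do not stand for the whole gene family. At TM and FIM the RBCS sum ran from 235 to 546 and from 249 to 261 RPKM in WT, and from 223 to 363 and from 187 to 246 RPKM in slful. The chlorophyll a-b binding sum ran from 47.0 to 162 and from 19.8 to 28.7 RPKM in WT, and from 49.6 to 54.5 and from 23.9 to 33.6 RPKM in slful. The chlorophyll a-b binding sum was thus higher at TM than at VM in both genotypes. LANCEOLATE was not called in this step, which crosses the export formats. The WT TM libraries were the most uneven in both sums. Of the 3 RBCS loci, 2 fell from VM to SFIM in each genotype and 1 did not pass, where 44.4% of all genes passed in WT and 47.8% in slful. None of these marker sums was at 0 in any group, and the part of leaf tissue in the fall of LANCEOLATE was not tested.

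LANCEOLATE was lower in slful than in WT at TM and FIM without overlap of the libraries, but neither difference passed the test. At FIM the highest slful library (8.04 RPKM) was below the lowest WT library (9.42 RPKM), and at TM the highest slful library (12.0 RPKM) was just below the lowest WT library (12.1 RPKM). Such a gap between the ranges was found for 17.5% of the genes tested at FIM and for 15.6% at TM, against 18.2% at SFIM, where LANCEOLATE overlapped. At FIM the log2 fold change was -0.47 (SE 0.22, 95% interval -0.92 to -0.01, adjusted p = 0.444), and the reads gave a ratio of 0.705 (95% counting interval 0.64 to 0.777). Over the alternative settings the adjusted p of this FIM difference ran from 0.0596 to 0.968. At TM the log2 fold change was -0.17 (SE 0.18, adjusted p = 0.817). At VM and SFIM the genotypes overlapped, with differences of 0.02 (95% interval -0.22 to 0.26) and 0.01 (95% interval -0.23 to 0.24) on the log2 scale, the first turning to -0.00024 and the second to -0.03 when libraries were centred on their medians. The drop from TM to FIM was -0.57 in slful (SE 0.23, adjusted p = 0.189, with 3.41% of genes passing) and -0.28 in WT (SE 0.15, adjusted p = 0.293, with 10.2% passing). The test of the difference between these 2 drops gave -0.30 (95% interval -0.88 to 0.29, adjusted p = 0.914). The slful drop did pass with no group weights (adjusted p = 0.00244), with the replicate number as a block (adjusted p = 0.0383) and with the TM and FIM libraries alone (adjusted p = 0.0462).

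Ordered by mean, the LANCEOLATE groups ran from WT TM (12.8 RPKM ± 0.598, SD, n = 3) over slful VM (11.6 ± 2.0), WT VM (11.3 ± 0.848), slful TM (11.3 ± 0.611) and WT FIM (10.5 ± 0.914) to slful FIM (7.44 ± 0.516), slful SFIM (7.13 ± 1.3) and WT SFIM (7.05 ± 0.792). Of the 7 neighbouring pairs in this order only WT FIM and slful FIM had separate ranges. The whole span was 1.81-fold.

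The 7 leaf form genes listed beside LANCEOLATE moved in both directions along the stages. From VM to SFIM, 2 were called higher and 4 lower in WT, where 44.4% of all genes passed, and 2 higher and 5 lower in slful, where 47.8% passed. The locus listed as PTS (Solyc06g072480, described as knox-like 1, a KNOX gene known for tomato leaf complexity) fell the furthest of the 7, from 242 ± 7.51 RPKM in WT VM to 4.89 ± 1.56 RPKM in WT SFIM, which is -5.54 on the log2 scale (SE 0.20, adjusted p = 5.09e-15). LYR as listed (Solyc05g009380), known for leaflet number, was at 23.4 ± 1.33 RPKM in WT VM and 4.0 ± 0.275 RPKM in WT SFIM, or -2.41 (SE 0.16, adjusted p = 6.85e-11). CLAU as listed (Solyc04g008480), a MYB gene known to act beside LANCEOLATE in leaf maturation, had a log2 fold change of -1.44 in WT, with SE 0.11 and adjusted p = 4.61e-10. The 2 called higher in WT were the listed TKN1 (Solyc04g077210) and TKN2 (Solyc02g081120). Their log2 fold changes were 1.07 (SE 0.08, adjusted p = 5.69e-10) and 0.47 (SE 0.08, adjusted p = 7.82e-05). The listed E (Solyc04g076850) gave -0.08 in WT (SE 0.05, adjusted p = 0.202).

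Between genotypes 1 of these 7 passed at SFIM and 1 in the average over stages. The listed PTS was at 12.0 ± 2.99 RPKM in slful SFIM, with libraries between 8.63 and 14.4 RPKM, and between 3.1 and 5.99 RPKM in WT SFIM, so it was higher in slful without overlap (log2 fold change 1.23, SE 0.18, adjusted p = 0.000555, where 2.08% of genes passed). PHAN as listed (Solyc09g010840), known for the upper leaf side, was lower in slful averaged over stages, by -0.20 in log2 (SE 0.043, adjusted p = 0.0117, where 2.76% of genes passed). At VM, TM and FIM limma called 0 of the 7, with 0, 1 and 1 at an unadjusted p under 0.05, and the test on recovered reads also called 0 at each. Of all genes tested, 1.67%, 0.367% and 0.128% passed at these stages.

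**Figure D2:**
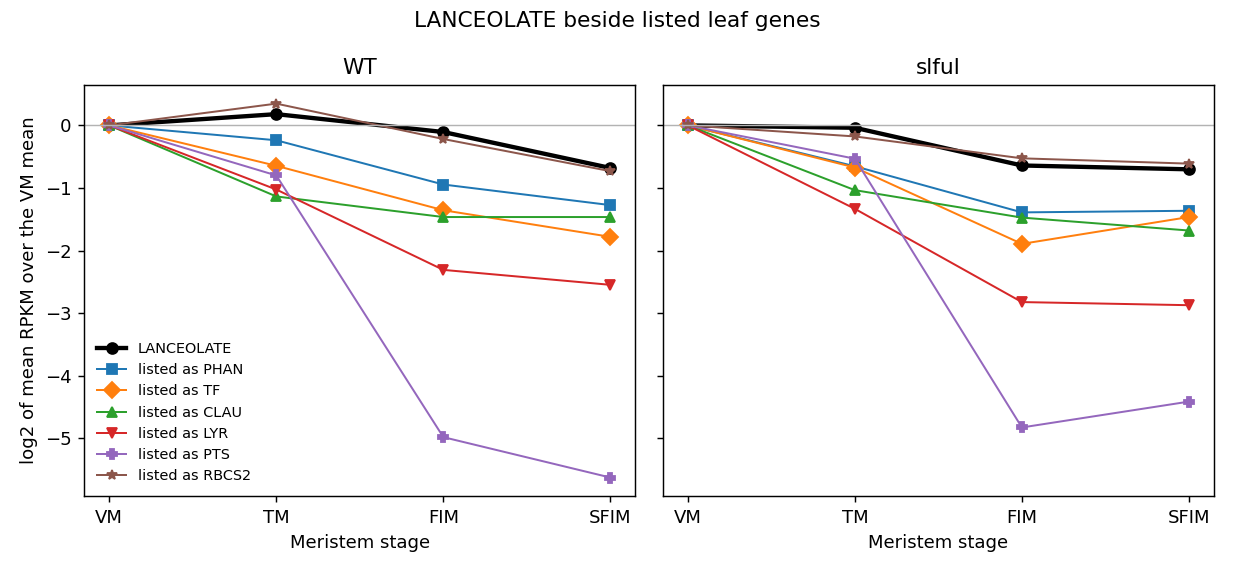
Group means of LANCEOLATE (black) and of 6 listed genes (PTS, LYR, CLAU, PHAN, TF and RBCS2) by stage, WT left and slful right. The vertical axis is log2 of the mean RPKM over the VM mean of the same genotype. Of the leaf form genes listed beside LANCEOLATE, TKN1 and TKN2, called higher at SFIM than at VM, and E are not drawn. LANCEOLATE stays near the listed RBCS2 and well above the listed PTS, which is lowest at FIM and SFIM. Among described or listed genes, RBCS2 is also the closest to LANCEOLATE over the 8 group means of these data. The listed RBCS1 and RBCS3 are not drawn. Their means went from 17.3 to 16.1 RPKM and from 13.5 to 5.14 RPKM between WT VM and WT SFIM. No error bars are drawn.

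The genes whose 8 group means followed LANCEOLATE most closely were Solyc03g025820 and Solyc07g065440, each with a Pearson r of 0.995 on log2 means over the 8 groups, among 17570 genes; neither has a deposited description. Among described or listed genes the closest were the locus listed as RBCS2 (Solyc03g034220, r = 0.949), the boundary gene listed as GOB (Solyc07g062840, r = 0.918) and a gene described as a UvrD-like helicase (Solyc12g013600, r = 0.913). The points share their libraries and their depth, so these values only describe likeness. Descriptions, here and below, were read only from the authors' sheets of slful against WT. A described gene is thus one listed there as changed at some stage.

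BRC1a was scarce in every library and almost absent from TM and FIM. The WT VM libraries held 0.523, 0.434 and 0.717 RPKM and the slful VM libraries 0.221, 0.474 and 0.704 RPKM. At TM, WT held 0.0472, 0 and 0 RPKM and slful 0, 0.0247 and 0 RPKM, and at FIM, WT held 0.0606, 0.0492 and 0 RPKM and slful 0.062, 0 and 0 RPKM. Each of these 4 groups held 1 to 4 BRC1a reads in all, and none of the 12 libraries reached the lowest VM library. At SFIM, WT held 0.258, 0.176 and 0.185 RPKM and slful 0.454, 0.0316 and 0.489 RPKM, so the WT SFIM libraries were between the other stages and the slful ones spread widely, with replicate 2 down to 1 read against 14 and 15 reads in the other two.

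BRC1a fell from VM to TM in both genotypes, a step that crosses the export formats. The reads were 53 in WT VM and 3 in WT TM, so that VM exceeded TM by 35.4 times per unit of depth (95% counting interval 11.5 to 177). In slful they were 44 and 1, a ratio of 35.5 (95% counting interval 6.05 to 1430). On the log2(RPKM + 0.5) scale, which understates the change of so low a gene, the difference was -1.03 in WT (SE 0.27, adjusted p = 0.00743, where 25.4% of genes passed) and -0.90 in slful (SE 0.25, adjusted p = 0.00788, where 32.8% passed). Over the alternative settings the WT value ran from -5.25 to -0.61 and the slful value from -3.78 to -0.53. The WT call was lost without WT TM replicate 3 (-1.01, adjusted p = 0.0635). The slful call was lost without slful TM replicate 2 (-0.92, adjusted p = 0.0591) and without replicate 3 (-0.88, adjusted p = 0.0791). BRC1a reached the 0.5 RPKM of the filter in 3 libraries, all of them VM libraries, so it entered the test through the stage where it is high; both calls held with no filter.

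Within one export format, BRC1a was lower at SFIM than at VM in WT and not clearly so in slful. The WT libraries did not overlap, a gap between stages whose share among all genes was not computed. The reads were 53 at VM and 20 at SFIM (ratio 0.369 of SFIM over VM, 95% counting interval 0.209 to 0.628). In limma the log2 difference was -0.58 (SE 0.21, adjusted p = 0.0294, where 44.4% of genes passed). This call was lost without WT VM replicate 1 (-0.60, adjusted p = 0.0813), WT VM replicate 3 (-0.47, 0.107), WT SFIM replicate 2 (-0.55, 0.0716) or WT SFIM replicate 3 (-0.56, 0.0849), on recovered reads (-1.30, adjusted p = 0.0881), with an offset of 0.1 RPKM (-1.09, 0.0664), with libraries centred on their medians (-0.50, 0.0589) and with the VM and SFIM libraries alone (-0.58, 0.114). In slful the ranges overlapped and the log2 difference was -0.25 (95% interval -0.64 to 0.14, adjusted p = 0.287); without slful VM replicate 1 it was -0.45 and passed (adjusted p = 0.0472), and without slful SFIM replicate 2 it was 0.04 (adjusted p = 0.877). The test of the difference between the genotypes in this step gave 0.33 (95% interval -0.26 to 0.91, adjusted p = 0.891).

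BRC1b, the second gene of the pair, was also low. Its pooled level was close to that of BRC1a in WT VM (0.591 against 0.555 RPKM) and higher in WT TM (0.0983 RPKM, 95% counting interval 0.0616 to 0.149, against 0.0157, 0.00323 to 0.0458) and in WT SFIM (0.509 RPKM, 0.386 to 0.658, against 0.205, 0.125 to 0.317). The WT VM libraries held 0.316, 0.795 and 0.669 RPKM, the WT TM libraries 0.121, 0.128 and 0.0725 RPKM, the WT FIM libraries 0.156, 0.0631 and 0.0908 RPKM, and the WT SFIM libraries 0.524, 0.752 and 0.238 RPKM. In slful the values were 0.593, 0.757 and 0.766 RPKM at VM, 0.127, 0.19 and 0.153 RPKM at TM, 0, 0 and 0.0817 RPKM at FIM, and 0.805, 0.352 and 0.753 RPKM at SFIM. All 12 VM and SFIM libraries, from 0.238 RPKM upward, were above all 12 TM and FIM libraries, which reached at most 0.19 RPKM. That division of the libraries is also the division into the 2 export formats, and 1.49% of the genes tested had all VM and SFIM libraries on the higher side and 1.59% on the lower. For BRC1a the 2 sets overlapped through slful SFIM replicate 2 alone. The slful SFIM replicate 2 library was the lowest of its group for BRC1b too, with 13 reads against 29 and 27, and the highest of its group for LANCEOLATE.

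Called for BRC1b were a fall into TM in both genotypes and a return at SFIM in WT. Both steps cross the export formats and cannot be told apart from a batch of that kind. From VM to TM the reads went from 66 to 22 in WT, with VM above TM by 6.02 times per unit of depth (95% counting interval 3.66 to 10.2), and from 78 to 15 in slful, with VM above TM by 4.2 times (2.39 to 7.85). The log2 differences were -0.82 in WT (SE 0.25, adjusted p = 0.0192, where 25.4% of genes passed) and -0.87 in slful (SE 0.23, adjusted p = 0.00568, where 32.8% passed), with ranges of -2.48 to -0.51 and of -1.99 to -0.56 over the alternative settings. The WT call was lost without WT VM replicate 2 (-0.69, adjusted p = 0.0629) or WT TM replicate 3 (-0.78, adjusted p = 0.127), and the slful call without slful TM replicate 3 (-0.87, adjusted p = 0.0633). From FIM to SFIM the WT reads went from 13 to 58, a ratio of 5.1 (95% counting interval 2.76 to 10.1), and the log2 difference was 0.71 (SE 0.19, adjusted p = 0.00817, where 31.7% of genes passed). That call was lost with the replicate number as a block (adjusted p = 0.217), without WT FIM replicate 3 (0.69, adjusted p = 0.0631) and without WT SFIM replicate 2 (0.53, adjusted p = 0.0525).

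In slful the BRC1b reads went from 3 at FIM to 69 at SFIM, a ratio of 17.3 with a 95% counting interval of 5.69 to 86.2. The log2 difference was 1.09 (SE 0.35, adjusted p = 0.11, where 3.34% of genes passed) and did not pass. It did pass with no group weights (adjusted p = 0.000799), with an offset of 0.1 RPKM (2.53, adjusted p = 0.0271), without slful FIM replicate 1 (1.05, adjusted p = 0.00908) and without slful SFIM replicate 2 (1.28, adjusted p = 0.0308). Within one export format limma called no change of BRC1b. In slful FIM versus TM the reads were 3 against 15, a ratio of 0.217 (95% counting interval 0.0403 to 0.769), with a log2 difference of -0.32 (SE 0.38, adjusted p = 0.696, where 3.41% of genes passed). The libraries did not overlap, a gap whose share among all genes was not computed. SFIM versus VM gave -0.13 in WT (95% interval -0.53 to 0.28) and -0.11 in slful (95% interval -0.47 to 0.26), each with a reversed sign when single libraries were left out. BRC1b was 0.5 RPKM or more in 9 libraries, all of VM or SFIM, and its VM to TM calls also held with no filter.

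**Figure D3:**
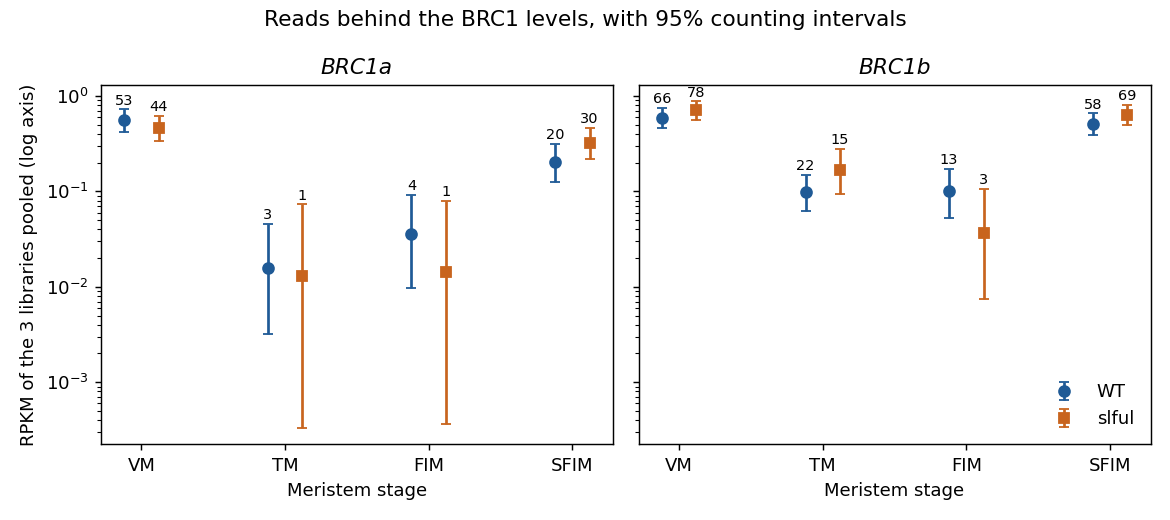
Pooled level of BRC1a (left) and BRC1b (right) per group in RPKM on a log axis, over the 3 libraries of each group, with 95% Poisson counting intervals and the number of reads above each point. The TM and FIM groups rest on 1 to 22 reads and lie below the VM and SFIM groups in both genotypes; the intervals cover counting error only.

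Neither BRC1 gene separated the genotypes at any stage. The WT and slful ranges overlapped in all 8 comparisons, which was the usual case among all genes. A gap between the ranges was found for 17.0% of the genes tested at VM, 15.6% at TM, 17.5% at FIM and 18.2% at SFIM. The differences of slful from WT in BRC1b were 0.17 at VM (95% interval -0.22 to 0.55), 0.11 at TM (-0.48 to 0.70), -0.20 at FIM (-0.93 to 0.54) and 0.19 at SFIM (-0.19 to 0.57) on the log2 scale. For BRC1a they were -0.15 at VM (95% interval -0.57 to 0.27), -0.02 at TM (-0.66 to 0.62), -0.04 at FIM (-0.83 to 0.75) and 0.17 at SFIM (-0.24 to 0.58), and the TM and FIM signs turned when libraries were centred on their medians. By reads the pooled slful over WT ratio of BRC1b had a 95% counting interval of 0.848 to 1.68 at VM and of 0.866 to 1.8 at SFIM. At FIM, with 3 against 13 reads, it ran from 0.0669 to 1.33. For BRC1a the TM and FIM groups held 1 to 4 reads each, and a difference between genotypes was not detectable there at this depth.

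Over the 8 groups the log2 means of BRC1a and BRC1b had a Pearson r of 0.93, a description of 2 genes read in the same libraries, while BRC1a and LANCEOLATE had r = -0.02. Closest to BRC1a were Solyc01g014275 (r = 0.995) and Solyc01g090140 (r = 0.993), both undescribed and both at or near 0 at TM and FIM. Closest to BRC1b were Solyc03g111800 (r = 0.99) and Solyc02g020900 (r = 0.989), also undescribed. Among described or listed genes, Solyc01g091490 (described as an unknown protein) and Solyc03g005960 (protein kinase LESK1) led for both, with r = 0.804 and 0.758 for BRC1a and r = 0.744 and 0.708 for BRC1b. The third was a pentatricopeptide repeat gene (Solyc02g068760, r = 0.749) for BRC1a and a gene described as Protein TIC 214 (Solyc00g500042, r = 0.688) for BRC1b.

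Of the loci listed around the BRC1 pair, some gave few reads and those tested were not called between genotypes. Of the 6 loci listed for strigolactone, 3 were tested. The other 3, all listed for its synthesis, did not pass the filter. Of the synthesis genes the locus listed as MAX1 (Solyc08g062950) was tested; it fell in WT from 1.13 ± 0.288 RPKM at VM to 0.691 ± 0.281 RPKM at SFIM (log2 fold change -0.46, SE 0.15, adjusted p = 0.0191), and slful gave -0.12 (adjusted p = 0.5). The locus listed as the strigolactone receptor D14 (Solyc04g077860) rose from VM to TM in both genotypes, from 2.78 ± 0.103 to 5.39 ± 1.1 RPKM in WT (log2 fold change 0.83, SE 0.21, adjusted p = 0.00613) and from 3.27 ± 0.274 to 6.45 ± 2.51 RPKM in slful (0.82, SE 0.19, adjusted p = 0.00252), and was also higher at SFIM than at VM (0.97 in WT and 0.80 in slful, adjusted p = 5.39e-05 and 0.000122). Between genotypes limma called 0 of the 3 at every stage and on average, with 0 at an unadjusted p under 0.05, and the test on recovered reads called 0 as well. Of all genes tested, 0.128% (FIM) to 2.08% (SFIM) passed at a stage and 2.76% on average.

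Of the 5 loci listed for axillary meristems and boundaries, all were tested, and from VM to SFIM 2 were called higher and 3 lower in each genotype, where 44.4% of all genes passed in WT and 47.8% in slful. The locus listed as BL (Solyc11g069030), a MYB gene needed for side shoots, went from 24.4 ± 0.818 RPKM in WT VM to 56.5 ± 3.08 RPKM in WT SFIM (log2 fold change 1.19, SE 0.11, adjusted p = 1.8e-08). The locus listed as LS (Solyc07g066250), a GRAS gene needed for axillary meristems, went from 8.71 ± 0.436 to 4.52 ± 0.58 RPKM in WT (-0.88, SE 0.11, adjusted p = 1.5e-06). Between genotypes limma called 0 of the 5 at each stage and on average, with 0 to 2 at an unadjusted p under 0.05, and the test on recovered reads called 0. Across all genes tested, 0.128% (FIM) to 2.08% (SFIM) passed at a stage and 2.76% on average.

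TCP7 was highest at SFIM, by a wide margin. Its WT libraries held 0.417, 0.504 and 0.265 RPKM at VM, 0.64, 0.243 and 0.23 RPKM at TM, 0.0411, 0.267 and 0.18 RPKM at FIM, and 5.29, 7.48 and 6.15 RPKM at SFIM. All 3 WT SFIM libraries were above every other WT library without overlap. Its slful libraries held 1.45, 1.03 and 0.78 RPKM at VM, 0.201, 0.335 and 0.182 RPKM at TM, 0.252, 0.478 and 0.475 RPKM at FIM, and 5.19, 5.4 and 7.12 RPKM at SFIM. Here too SFIM was far above the rest, and the VM libraries were above those of TM and FIM without overlap. How many of all genes show such gaps between stages was not computed.

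TCP7 rose at SFIM in both genotypes, also within one export format. From VM to SFIM the reads went from 28 to 456 in WT, a ratio of 15.9 (95% counting interval 10.9 to 24.3), and from 76 to 405 in slful, a ratio of 5.42 (4.23 to 7.01). The log2 fold changes were 2.92 in WT (SE 0.19, adjusted p = 3.61e-11) and 2.02 in slful (SE 0.17, adjusted p = 2.03e-09). Only 0.532% of all genes tested rose as far or further in WT and 1.14% in slful. From FIM to SFIM, across the formats, TCP7 rose by 3.36 in WT (SE 0.18, adjusted p = 6.52e-12, where 31.7% of genes passed) and by 2.83 in slful (SE 0.33, adjusted p = 5.79e-06, where 3.34% passed), and the WT value ran from 2.65 to 5.41 over the alternative settings. All 4 of these calls held under every alternative setting and with any 1 library left out. In slful TCP7 fell from VM to TM, by -1.09 in log2 (SE 0.22, adjusted p = 0.00064, where 32.8% of genes passed, range -1.96 to -0.74 over the alternative settings), whereas WT gave -0.06 (95% interval -0.56 to 0.43, adjusted p = 0.885), turning positive without WT VM replicate 2 (0.02), WT TM replicate 2 (0.04) or WT TM replicate 3 (0.05). Whether these VM to TM steps differ between genotypes was not tested separately, and they cross the export formats.

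TCP7 was also the gene of the 4 that was called between genotypes, at VM. All 3 slful VM libraries (0.78 to 1.45 RPKM) were above all 3 WT VM libraries (0.265 to 0.504 RPKM), a separation found for 17.0% of the genes tested at this stage. The log2 fold change was 0.81 (SE 0.18, adjusted p = 0.0192), where 1.67% of genes passed and 0.596% rose at least as far. In reads it was 76 against 28, a ratio of 2.74 (95% counting interval 1.75 to 4.39). The authors' deposited table lists TCP7 at VM alone of its 4 stages, with a log2 fold change of 1.43 and a false discovery rate of 0.0494. That listing rests on the same libraries and is where the description of TCP7 was read, so it is no independent support. The call was lost with no group weights (adjusted p = 0.115), on recovered reads (1.39, adjusted p = 0.126) and with the VM libraries alone (adjusted p = 0.229). It was also lost without WT VM replicate 1 (0.84, adjusted p = 0.152), WT VM replicate 3 (0.71, adjusted p = 0.0873), slful VM replicate 1 (0.65, adjusted p = 0.0551) or slful VM replicate 2 (0.83, adjusted p = 0.0558).

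At the other stages the TCP7 ranges of the genotypes overlapped, as did those of most genes. A gap was found for 15.6% of the genes tested at TM, 17.5% at FIM and 18.2% at SFIM. The slful minus WT difference was -0.21 at TM (95% interval -0.77 to 0.35, adjusted p = 0.877), 0.45 at FIM (-0.25 to 1.15, adjusted p = 0.598) and -0.09 at SFIM (-0.45 to 0.27, adjusted p = 0.904). At FIM the reads were 22 in slful against 14 in WT, a ratio of 2.49 with a 95% counting interval of 1.22 to 5.27. At SFIM the reads were 405 against 456, a ratio of 0.93 with a 95% counting interval of 0.812 to 1.07. The genotype difference in the SFIM versus VM step was -0.90 (SE 0.25, 95% interval -1.42 to -0.39, adjusted p = 0.185, where 0.154% of genes passed), with an adjusted p between 0.117 and 0.969 over the alternative settings. The joint test of genotype by stage gave an adjusted p = 0.204 for TCP7, where 0.192% of genes passed, and 0.635, 0.876 and 0.915 for LANCEOLATE, BRC1a and BRC1b.

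The group means of TCP7 ran from WT SFIM (6.31 RPKM ± 1.1, SD, n = 3) and slful SFIM (5.91 ± 1.06), which overlapped, over slful VM (1.09 ± 0.34), separate from its neighbours on both sides, to slful FIM (0.402 ± 0.13), WT VM (0.396 ± 0.121), WT TM (0.371 ± 0.233), slful TM (0.239 ± 0.0837) and WT FIM (0.163 ± 0.114), where each neighbour overlapped with the next. The span of its group means on log2(RPKM + 0.5) was 3.36, wider than in 98.7% of the genes tested, against 1.19 for BRC1b, 1.06 for BRC1a and 0.81 for LANCEOLATE. On RPKM without the offset the order differs: the highest group mean was 67.7 times the lowest for BRC1a, whose lowest group holds 1 read, 38.8 times for TCP7, 25.9 times for BRC1b and 1.81 times for LANCEOLATE. The most similar course was that of 2 undescribed genes, Solyc12g056970 (r = 0.992 over the 8 group means), which reached 2.15 RPKM in WT SFIM and 1.73 RPKM in slful SFIM, and Solyc03g026220 (r = 0.976). Among described genes the closest were an alpha/beta-hydrolase gene (Solyc05g055290, r = 0.843), a gene described as an unknown protein (Solyc11g012325, r = 0.831) and a glutamate decarboxylase gene (Solyc04g025530, r = 0.809).

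**Figure D4:**
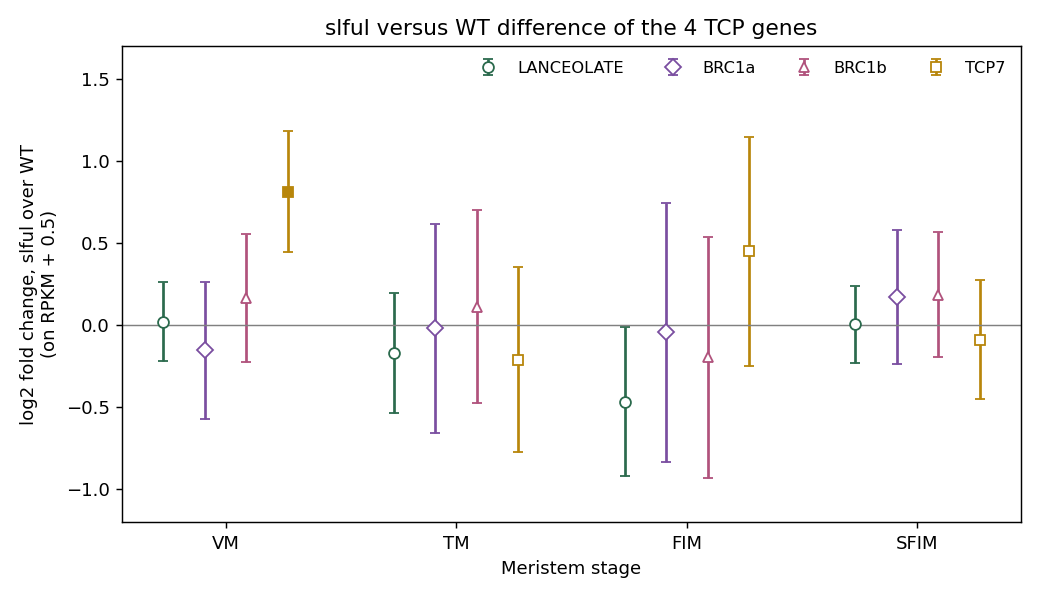
Log2 fold change of slful over WT on RPKM + 0.5 (vertical axis) for the 4 TCP genes at each stage, with 95% intervals from limma; the filled symbol marks the call with an adjusted p under 0.05. TCP7 at VM (0.81) is the filled one, and the interval of LANCEOLATE at FIM, -0.92 to -0.01, ends just below 0.

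Counted together, 1 of the 4 TCP genes was called between genotypes at VM and 0 at TM, FIM and SFIM. The gene called, TCP7, is listed in the authors' VM sheet of these libraries, and the 4 genes were chosen with earlier results known. Its call may therefore not be independent of that choice. At VM 1.67% of genes passed, at TM 0.367%, or 0.974% with the replicate number as a block, at FIM 0.128% and at SFIM 2.08%. An unadjusted p under 0.05 was reached by 1 of the 4 at VM and by 0, 1 and 0 at TM, FIM and SFIM. The test on recovered reads called 0 at all 4 stages. Averaged over the stages 0 were called, where 2.76% of genes passed, with 0 at an unadjusted p under 0.05. The values were 0.24 for TCP7 (95% interval -0.02 to 0.50), 0.07 for BRC1b (-0.20 to 0.34), -0.01 for BRC1a (-0.30 to 0.28) and -0.15 for LANCEOLATE (-0.32 to 0.02).

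Of the 8 listed FUL-like and flowering genes, 2 were called higher in slful at VM, where 1.67% of all genes passed, 1 higher and 1 lower at TM (0.367%), 1 lower at FIM (0.128%), and 1 higher and 2 lower at SFIM (2.08%). Apart from MC, the genes called at a stage are loci named in the slful genotype itself. The listed flowering genes FA (Solyc03g118160), SFT (Solyc03g063100) and SP (Solyc06g074350) were called at no stage. The macrocalyx gene (Solyc05g056620, listed as MC), a MADS-box gene of sepals and inflorescence, was at 4.66 ± 0.617 RPKM in slful VM and 2.3 ± 1.3 RPKM in WT VM (log2 fold change 0.97, SE 0.18, adjusted p = 0.00568), the same stage at which TCP7 was called. MBP20 (Solyc02g089210, described as a MADS box transcription factor) was higher in slful at VM, TM and SFIM, by 1.31, 0.72 and 0.43 on the log2 scale (SE 0.10, 0.14 and 0.09; adjusted p = 1.48e-08, 0.0272 and 0.013). FUL1 was lower in slful at TM, FIM and SFIM, by -1.02, -1.41 and -1.25 (SE 0.22, 0.27 and 0.14; adjusted p = 0.0428, 0.0305 and 1.59e-05), and the locus listed as FUL2 (Solyc03g114830) at SFIM, by -0.78 (SE 0.10, adjusted p = 0.000102). All 8 were called higher at TM than at VM in each genotype, where 25.4% of all genes passed in WT and 32.8% in slful. Both BRC1 genes fell in this step, which crosses the export formats. All 8 were also called higher at SFIM than at VM, where 44.4% of all genes passed in WT and 47.8% in slful.

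The 3 loci listed as hormone genes downstream of TCP factors passed in no genotype comparison in limma. Per stage, 0.128% (FIM) to 2.08% (SFIM) of all genes tested passed between genotypes. The locus listed as GA20ox1 (Solyc03g006880), a step of gibberellin synthesis, was at 4.47 ± 0.116 RPKM in WT SFIM and 2.87 ± 0.556 RPKM in slful SFIM, and at 1.17 ± 0.731 RPKM in WT TM and 2.46 ± 0.536 RPKM in slful TM. It rose from VM to SFIM in both genotypes (log2 fold change 3.03 in WT, SE 0.17, adjusted p = 5.51e-12). At an unadjusted p under 0.05 there were 1 of the 3 at TM and 2 at SFIM, and the test on recovered reads called 1 at TM and 1 at SFIM.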

How the data were processed

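RNA of pooled tomato meristems was sequenced after DNase treatment and TruSeq library preparation, per the labels' protocols. The authors deposited expression as RPKM for 34075 genes, per the legend in the file, and, for slful against WT at each stage, a sheet with log2 and linear fold changes, p-values and false discovery rates. These sheets of the authors hold 130, 124, 216 and 121 genes at VM, TM, FIM and SFIM, with false discovery rates of at most 0.0499 and absolute log2 fold changes of at least 1. Not given in the sources used here were the aligner, the genome build, the strandedness and the authors' test. No column was left unused for lack of a sample.

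Reads were recovered with Python 3.11.15 from the steps of the RPKM values: all 25568 genes above 0 gave whole reads within 0.02 reads. The recovered reads served for counting intervals (exact binomial for ratios, exact Poisson for levels, 95%), which cover counting error only, and for 1 alternative. The step of 1 read in a gene of 1 kb was 0.01107 to 0.07735 RPKM, and 0 reads allow up to 3 reads.

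Tests were made with limma 3.58.1 (R 4.3.3). Values were log2(RPKM + 0.5); the offset makes changes of low genes look smaller than they are. A gene was kept if 3 or more libraries reached 0.5 RPKM, which left 18786 genes. The fit held a mean per group over 24 libraries, 1 relative variance per group from array weights and moderated variances with a trend, with 16 residual degrees of freedom and a median of 20.97 after moderation. Tests were 2-sided, adjusted by Benjamini-Hochberg over all genes tested, and called under 0.05. A count model had been planned for the case of counts. The deposited unit is RPKM. Whole reads were recovered from it, but that count model was not run on them. The scripts were tested on simulated data.

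Alternatives were no group weights, offsets of 0.1 and 1 RPKM, no filter, a filter of 1 RPKM, libraries centred on their medians, the replicate number as a block, only the stages compared, each library left out in turn, and, chosen after seeing the data, voom (limma's test for counts) on recovered reads. At TM, deviations from the group means correlated at 0.228, 0.184 and 0.155 between same-numbered WT and slful libraries. Between differently numbered ones the TM values ran from -0.313 to 0.149. Same-numbered values were 0.138, -0.015 and 0.00426 at VM, -0.33, -0.195 and 0.161 at FIM, and 0.102, -0.0686 and -0.0354 at SFIM. Differently numbered FIM libraries reached 0.439, so these correlations cannot establish a pairing. The main fit was unpaired at every stage.

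The 4 genes, the lists and the comparison of the 2 export formats were chosen with earlier results of these data known. Descriptions were read only from the authors' sheets of slful against WT, which describe 435 genes, so every described gene is listed there at some stage. The genes named are the 4 TCP genes, and list members that passed between genotypes plus up to 2 others per list. Any other locus with TCP in its description was to be named too, with 0 found among the 435. Beyond these rules, MBP10, FA, SFT, SP, TKN1, TKN2, E and TF were added after their values were seen. Named too, per TCP gene, are the 2 genes with the highest Pearson r over the 8 group means among all genes with at least 1 RPKM in a group and the 3 highest among described or listed ones. Of 36 listed loci 4 have a deposited description; the RefSeq table of 41476 genes (SLM_r2.1) holds 0 of these IDs. No sequence or coordinate was used here.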

Additional observations from a re-analysis of the deposited data

Results flagged for a closer look

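MBP20 (Solyc02g089210, described as a MADS box transcription factor), one of the genes in the slful genotype and one of the flowering genes listed beside the TCP genes, differed between stages in its genotype difference. It was at 14.1 ± 0.267 RPKM in slful VM against 5.41 ± 0.14 RPKM in WT VM (SD, n = 3), and at 78.3 ± 0.39 RPKM in slful SFIM against 58.0 ± 5.52 RPKM in WT SFIM. The test of the change in this difference from VM to SFIM gave -0.87 on the log2 scale (SE 0.13, Benjamini-Hochberg adjusted p = 0.00324 in limma), and the joint test of genotype by stage an adjusted p = 0.0152. On recovered reads neither was called. None of the 4 TCP genes passed either test.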

How the results depend on the processing

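For the 4 TCP genes, 512 values from alternatives other than leaving out a library kept direction and side of the threshold, 11 turned sign, 5 came to pass and 8 ceased to; with 1 library left out these were 1474, 43, 3 and 16. The causes were not tested. Depth limits the BRC1 genes most, since their TM and FIM groups hold 1 to 22 reads. The BRC1 genes gave no value at a filter of 1 RPKM, and the planned count model was not run.

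With libraries centred on their medians, LANCEOLATE turned to -0.00024 (slful versus WT at VM) and -0.026 (SFIM), BRC1a to 0.011 (TM), 0.049 (FIM), 0.007 (average) and 0.038 (genotype difference in FIM versus TM), and BRC1b to 0.0049 (WT FIM versus TM). BRC1a in WT SFIM versus VM lost its call at -0.50. On recovered reads LANCEOLATE turned to -0.02 at SFIM, BRC1a to 1.09 at TM and 0.11 on average, and BRC1b to 0.057 in WT FIM versus TM, while the calls were lost for BRC1a in WT SFIM versus VM (-1.30) and TCP7 at VM (1.39). With an offset of 0.1 RPKM BRC1a lost that same call (-1.09) and BRC1b passed in slful SFIM versus FIM (2.53). With no group weights LANCEOLATE passed in slful FIM versus TM (-0.57) and BRC1b in slful SFIM versus FIM (1.09), and TCP7 at VM did not (0.81). With the stages compared alone LANCEOLATE passed in slful FIM versus TM (-0.57), and BRC1a in WT SFIM versus VM (-0.58) and TCP7 at VM (0.81) did not. With the replicate number as a block, BRC1b in WT SFIM versus FIM lost its call (0.71, adjusted p = 0.217) and LANCEOLATE in slful FIM versus TM passed (-0.57, adjusted p = 0.0383); the block changed no other call of the 4 genes.

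With 1 library left out, LANCEOLATE ran from -0.11 to 0.09 between genotypes at VM, -0.12 to 0.11 at SFIM, -0.09 to 0.11 in slful TM versus VM, -0.20 to 0.036 in slful SFIM versus FIM and -0.14 to 0.12 for the genotype difference in SFIM versus VM. BRC1a ran from -0.33 to 0.042 between genotypes at VM, -0.043 to 0.023 at TM, -0.055 to 0.061 on average, -1.11 to -0.92 in WT TM versus VM, -0.66 to -0.47 in WT SFIM versus VM, -1.09 to -0.72 in slful TM versus VM, -0.023 to 0.061 in slful FIM versus TM, -0.45 to 0.039 in slful SFIM versus VM and -0.08 to 0.009 for the genotype difference in FIM versus TM. BRC1b ran from -0.033 to 0.30 at VM, -0.02 to 0.38 at SFIM, -1.02 to -0.69 in WT TM versus VM, -0.073 to 0.037 in WT FIM versus TM, 0.53 to 0.91 in WT SFIM versus FIM, -0.33 to 0.078 in WT SFIM versus VM, -0.94 to -0.84 in slful TM versus VM, 0.97 to 1.28 in slful SFIM versus FIM, -0.22 to 0.088 in slful SFIM versus VM and -0.18 to 0.22 for the genotype difference in SFIM versus VM. TCP7 ran from 0.65 to 0.96 at VM, -0.22 to 0.033 at SFIM and -0.27 to 0.049 in WT TM versus VM.

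Counts of called genes over the whole table moved as well. Between genotypes the 313 genes at VM became 84 with no group weights and 49 with the stage alone, and 98 to 366 with 1 library left out. The 69 at TM became 339, 183 with the block and 4 with the stage alone, and 9 to 165. The 24 at FIM became 284 with no group weights, 39 with no filter, 37 when centred, 12 with the block, 46 on recovered reads and 9 with the stage alone, and 1 to 104. The 391 at SFIM became 69 with no group weights and 15 with the stage alone, and 151 to 409, and the 519 on average 133 to 646. Between stages, WT TM versus VM (4767) ran from 2872 to 4797 with 1 library left out. WT FIM versus TM (1925) gave 702 with the block and 908 to 2523. WT SFIM versus FIM (5949) gave 3027 with no group weights, 1635 with the block and 3314 to 6226. In slful, TM versus VM (6168) ran from 3264 to 8344. The 641 of slful FIM versus TM became 3983 with no group weights, 1425 with the block, 376 with the stages alone and 9 to 1978. The 628 of slful SFIM versus FIM became 1776, 952 with the block and 155 to 1915, and slful SFIM versus VM (8985) gave 5487 with no group weights. For the genotype difference in FIM versus TM limma called 0 genes (790 at an unadjusted p under 0.05, 0 on recovered reads), 5 with no group weights, 1 with no filter and 0 to 2 with 1 library left out. For that in SFIM versus VM the 29 became 4, 44 with no filter, 5 on recovered reads and 14 with the stages alone, and 10 to 54, and the 36 of genotype by stage ran from 9 to 78.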
